A study of Mus musculus with 6 samples.

Results

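Gene bodies of 150 kb or more were examined in a PRO-seq series, in which polymerases engaged in transcription are mapped by letting isolated nuclei add biotin-labelled nucleotides to their nascent RNA for 3 min. Members were chosen by length alone: of the 2744 genes in the deposited table, each represented by its transcript with the most body reads on average, 309 (11.3%) had a body of at least 150000 bp. At that length the table held 334 rows, of which 25 were further transcripts of the same genes. The cells were cKIT+ bone marrow progenitors of female C57/BL6 mice carrying Mllt3 flox/flox and Rosa26Cre+, transduced either with MLLT3 WT (WT) or with MLLT3 K63E K67E (DM) and sorted. Both groups were then kept for 8 days in methylcellulose with gentamycin, SCF, Flt3L, GMCSF, mIL-11, mIL-6, mIL-3 and EPO among other factors, and with 200 nM 4-hydroxytamoxifen, given to delete the floxed gene in WT and DM alike. Each group had 3 libraries, all in batch 1, and no label says whether they came from separate mice or cultures, so p-values measure the spread between these libraries only. The labels used here give no measure of how complete the deletion was.

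MLLT3, also called AF9, reads modified histones through its YEATS domain and is a subunit of complexes that promote transcript elongation. Polymerase commonly pauses shortly after initiation and is released into the gene body by the kinase P-TEFb, so a head window near the start collects paused and newly started polymerase while the body collects elongating polymerase. In a very long gene the body holds polymerases that left the start at widely different times, which is why such genes are often used to follow elongation.

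The head window spanned 330 bp and opened 30 bp upstream of the annotated start; the body was the rest of the transcript, introns included. Library totals lay between 15112853 and 22981603 reads, the lowest being WT replicate 2, and any triplet of values below lists replicates 1, 2 and 3 in that order. Every row of the table had been called by the authors on body counts, so the table has no unchanged bodies to set the members against. Among marker genes present in the table, 1 of 7 progenitor genes (of 8 listed) was higher in DM and 5 were lower, and their summed body signal was 2556 to 3278 RPM (reads per 1000000 in the library) in WT and 1546 to 1606 in DM, and that of 7 mature myeloid genes was 217 to 285 in WT and 631 to 737 in DM. The erythroid and megakaryocyte genes (4 of 8 listed) ran from 197 to 223 RPM in WT and from 107 to 125 in DM, the mast and basophil genes (3 of 7) from 1188 to 2204 and from 943 to 1018, and Il7r, the 1 lymphoid gene of 6 in the table, from 18.8 to 28.5 and from 56.0 to 71.5. These differences in marker genes ran with the groups, their part in the results below was not tested, and a smaller share of a cell type and less nascent RNA per cell cannot be told apart. Stromal and mesenchymal genes (5 of 12) reached 43.6 RPM in WT replicate 1 and 4.63 to 11.9 in the other 5 libraries.

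The starts of these genes were compared through RefSeq promoters of GRCm38.p6; each spans 250 bases before to 50 after a gene's start. A promoter entry was found by symbol for 241 of the 309 members, and for 151 it began within 50 bases of the start used in the table. The GC box letters GGGCGG, searched on either strand, occurred in 78.8% of those 151 promoters and in 35.7% of all 32851 promoters of the RefSeq table; TATAAA, searched on either strand, occurred in 3.97% and 13.6%. Such matches describe letters and not bound sites. The RefSeq set was not limited to transcribed genes, and no share was computed for the shorter genes of the table. The difference therefore does not set long genes apart from other transcribed genes. Below are Fhit (chr14:10453409-10453708, minus strand) and Slit2 (chr5:47982905-47983204, plus strand), which had among the highest head to body ratios; Rbms1 (chr2:60963155-60963454, minus strand) and Cobl (chr11:12464911-12465210, minus strand), which had among the lowest of the matched members; and Fgd4 (chr16:16599929-16600228, minus strand), a gene with a changed ratio, whose RefSeq start lay 61 bases from the start in the table. Capitals mark GGGCGG or its reverse complement, and TATAAA.
Fhit promoter: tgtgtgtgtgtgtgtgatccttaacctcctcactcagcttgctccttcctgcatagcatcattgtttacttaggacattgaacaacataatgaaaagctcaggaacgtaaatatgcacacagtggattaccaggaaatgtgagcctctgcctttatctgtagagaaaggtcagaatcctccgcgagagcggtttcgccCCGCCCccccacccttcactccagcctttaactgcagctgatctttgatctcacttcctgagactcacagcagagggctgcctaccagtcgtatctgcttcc
Slit2 promoter: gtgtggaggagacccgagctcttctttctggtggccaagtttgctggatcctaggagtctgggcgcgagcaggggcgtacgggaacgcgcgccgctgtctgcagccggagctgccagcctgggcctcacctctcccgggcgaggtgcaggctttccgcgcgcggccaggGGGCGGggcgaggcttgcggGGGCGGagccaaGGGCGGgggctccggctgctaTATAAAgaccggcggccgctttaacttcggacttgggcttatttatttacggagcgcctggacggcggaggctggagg
Rbms1 promoter: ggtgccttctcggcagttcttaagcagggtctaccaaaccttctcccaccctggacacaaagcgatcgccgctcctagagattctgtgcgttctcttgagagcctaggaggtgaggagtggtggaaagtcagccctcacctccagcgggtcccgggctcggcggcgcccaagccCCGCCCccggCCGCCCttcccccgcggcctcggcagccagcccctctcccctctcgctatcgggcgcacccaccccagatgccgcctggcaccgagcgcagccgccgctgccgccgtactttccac
Cobl promoter: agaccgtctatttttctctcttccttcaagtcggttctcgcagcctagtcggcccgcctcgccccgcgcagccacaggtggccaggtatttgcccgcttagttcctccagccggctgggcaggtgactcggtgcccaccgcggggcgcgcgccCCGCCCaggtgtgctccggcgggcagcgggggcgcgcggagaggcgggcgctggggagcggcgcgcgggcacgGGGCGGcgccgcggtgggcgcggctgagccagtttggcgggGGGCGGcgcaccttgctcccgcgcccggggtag
Fgd4 promoter: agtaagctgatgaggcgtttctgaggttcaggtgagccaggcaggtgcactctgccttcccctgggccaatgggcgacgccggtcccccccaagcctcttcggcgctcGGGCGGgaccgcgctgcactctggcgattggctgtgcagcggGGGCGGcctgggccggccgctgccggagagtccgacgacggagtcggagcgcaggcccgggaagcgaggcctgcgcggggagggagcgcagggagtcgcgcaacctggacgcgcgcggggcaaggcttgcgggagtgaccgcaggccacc

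The printed promoters all carried at least 1 GC box, in Slit2 together with a TATAAA run, so the box was present at both ends of the ratio order. Among the matched members with enough head reads, it occurred in 73.9% of the 69 with lower ratios and in 82.9% of the 70 with higher ratios, with a median of 27 and 28 CpG dinucleotides per promoter; the median was 7 over all RefSeq promoters. How well the annotated start matched also ran with the ratio. The 280 members with a mean head count of at least 10 were split by head to body ratio into 4 bins of 70. Of those with a RefSeq entry, the start lay within 50 bases of the table's start in 25 of 54 in the lowest bin. In the next bins it did so in 36 of 57, 39 of 50 and 39 of 55. The part of the annotation in the ratio was not tested.

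The 309 bodies were 150 kb to 1997 kb long with a median of 235 kb; 23 exceeded 500 kb and 4 exceeded 1000 kb. The longest were Macrod2 (1997 kb), which encodes a mono-ADP-ribosylhydrolase, the predicted gene Gm37240 (1391 kb), Auts2 (1106 kb), a component of noncanonical Polycomb complexes, Lrmda (1036 kb), which acts in melanocyte differentiation, Fhit (903 kb), a diadenosine triphosphate hydrolase at a fragile site, and Inpp4b (785 kb), a phosphoinositide 4-phosphatase. At the threshold, Fam129a (150452 bp), Htt (150489 bp) and Ptprj (150592 bp) were the shortest members, and Cobll1 (149986 bp), Rap1gds1 (148998 bp) and Zranb3 (148516 bp) the longest genes outside. Head reads per 100 body reads at this border were 10.9, 15.7 and 12.7 for WT and 8.77, 11.0 and 9.83 for DM in Htt, the huntingtin gene, and 8.57, 18.4 and 11.1 for WT and 8.03, 13.98 and 13.3 for DM in Cobll1. Members lay on 20 chromosomes, 138 on the plus and 171 on the minus strand. Another gene of the table overlapped 9 of the members, on either strand. At least 1 other RefSeq coding gene was enclosed by 33 members, with 6 inside Gm37240 and 4 inside Nf1. These counts took no account of strand, and whether body windows also hold reads of enclosed genes was not tested.

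Very long bodies carried many reads at low density. Mean body counts per member ran from 44.7 to 22383 reads with a median of 1820, against a median of 668 in the 2435 shorter genes. Per length the order turned: the median body RPKM (RPM per kb) was 0.296 in members and 1.19 in the shorter genes. Head windows are equal in size and differed less, with a median head RPKM of 13.96 and 18.2. Among the densest bodies, by mean RPKM over the 6 libraries, were Zmiz1 (3.21), a transcriptional co-regulator, Fndc3a (2.82), the zinc finger gene Rreb1 (2.53), Dock10 (2.32), a small GTPase exchange factor, and Clnk (2.24), an adaptor of immunoreceptor signalling.

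The head to body ratio of RPKM, a difference in density within a gene, ran from 3.31 to 1410 over the 280 members with a mean head count of at least 10, with a median of 52.6. Macrod2 (1410), Fhit (1388), the bicarbonate transporter gene Slc4a4 (1168), Slit2 (745), which encodes a guidance ligand of Robo receptors, and Btbd3 (448) were highest. Their bodies held few reads: Fhit, for example, had 139, 113 and 158 body reads and 58, 86 and 100 head reads in WT. Rreb1 (3.31), Gse1 (3.56), Fam129a (3.57), Rbms1 (3.86) and Clnk (5.16) were lowest, and 2 of these were also among the densest bodies. The nearest RefSeq starts of Rreb1 and Gse1 lay 47637 and 260409 bases from the start in the table, and those of Clnk and Rbms1 119 and 12 bases. Across the 280 genes the log2 ratio fell with body density (Spearman correlation -0.53) and rose weakly with body length (0.18), while head and body density were correlated at 0.53; these are descriptions across genes of the same 6 libraries, and the ratio shares its body reads with the density. The other 29 members had a mean head count under 10, and 9 had no head read in at least 1 library.

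Summed over the 309 members, WT libraries held 4.57, 9.75 and 5.39 head reads per 100 body reads, and DM libraries held 4.85, 5.58 and 5.21. WT replicate 2 stood above every other library, and the other 5 lay close together with WT and DM values interleaved. The group means were 6.57 ± 2.78 and 5.21 ± 0.366 (SD, n = 3 each), a DM minus WT difference of -1.36 (two-sided exact permutation p = 0.8; 3 libraries against 3 can reach no less than 0.1). Leaving it out, the WT mean was 4.98 and the difference turned to 0.232 (exact permutation p = 0.6). The direction of the difference thus rested on that library; with so few libraries the test could not reach 0.05. The raw sums behind these values were 36667, 45008 and 47717 head and 801549, 461734 and 885145 body reads in WT, and 43755, 42749 and 40488 head and 902483, 766095 and 776406 body reads in DM. As shares of the library, head reads of WT replicate 2 were the highest of the 6 (0.298% against 0.160% to 0.211%) and its body reads the lowest (3.06% against 3.49% to 3.95%).

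The excess of WT replicate 2 was larger in longer genes. Over the mean of the other 5 libraries, its summed ratio was 1.35 times as high in the 241 genes with bodies of 6 kb or less, 1.61 times in the 1480 of 6 to 50 kb, 1.91 times in the 714 of 50 to 150 kb and 1.90 times in the members. Gene by gene, against the mean of WT replicates 1 and 3, the median excess was 1.12-fold, 1.44-fold, 1.73-fold and 1.84-fold. The excess of single genes was above 1 in 93.9% of 280 members and in 93.2% of the genes of 50 to 150 kb. WT replicate 2 had the highest ratio of the 6 libraries in 220 of the 280 members (78.6%). That share was 80.2% in the genes of 50 to 150 kb and 68.2% in all genes. WT replicate 1 had the lowest ratio in 124 members (44.3%), against 34.9% of the genes of 50 to 150 kb and 34.0% of all genes. The excess is that of 1 library, WT replicate 2, also the shallowest, and nothing in the labels sets it apart. Measured against WT replicates 1 and 3, it also takes in the low ratios of WT replicate 1. What made either library differ was not tested.

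**Figure D1:**
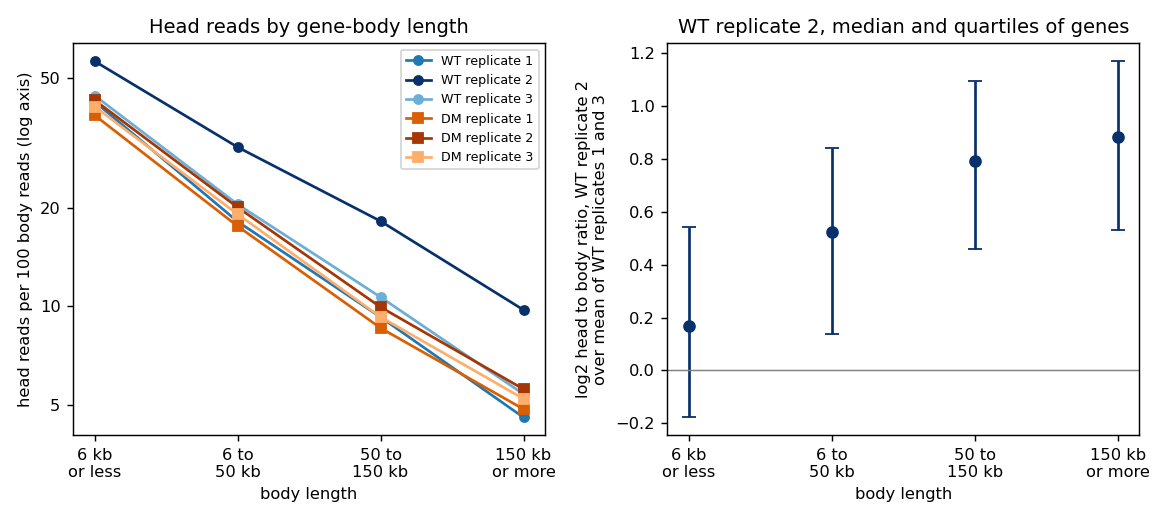
The left panel plots head reads per 100 body reads (log axis) against gene-body length class for each of the 6 libraries, and the right panel plots the log2 head to body ratio of WT replicate 2 over the mean of WT replicates 1 and 3, as the median over genes with bars for the quartiles. WT replicate 2 lies above the other 5 libraries in every class, at 9.75 against 4.57 to 5.58 in the longest, and the median excess is 0.17 in the shortest class and 0.88 in the longest.

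Set against the shorter genes within the same library, the log2 of the members' summed ratio over that of all other genes was -1.78, -1.47 and -1.70 in WT and -1.60, -1.59 and -1.61 in DM. The DM values lay close together inside the WT range, and the means differed by 0.049 (exact permutation p = 0.7). When it was left out, all DM values lay above both WT values, with a difference of 0.138 and an exact permutation p of 0.1, the least that 2 against 3 can give. Against the 714 genes of 50 to 150 kb alone, the difference was 0.139 with all DM above all WT libraries (exact permutation p = 0.1). Against all other genes, the difference computed from median ratios in place of sums was -0.112 (exact permutation p = 0.5). The direction of the comparison with all other genes thus depended on the summary used.

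Member bodies held 3.49%, 3.06% and 3.87% of the library in WT and 3.95%, 3.79% and 3.89% in DM. The means of 3.47% ± 0.407 and 3.88% ± 0.0812 (SD, n = 3 each) differed by 0.405 percentage points (exact permutation p = 0.2), and by 0.197 without WT replicate 2 (exact permutation p = 0.3). The groups overlapped in both cases, since WT replicate 3 lay inside the DM range.

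Tested gene by gene, the head to body ratio changed in 2 members, both lower in DM, of the 281 that passed the filter on low counts: Macrod2 and Fgd4. They were also the only genes called among all 2577 tested (0.0776%, all lower; 0 higher), where 395 had an unadjusted p under 0.05, and 38 of the members did. The median log2 change over tested members was -0.35, with -0.25 in the shorter genes. Values below 0 were found in 79.7% of members, 79.9% of the genes of 50 to 150 kb and 73.1% of all genes. Without WT replicate 1 the median was -0.60 (-0.40 in the shorter genes). There 87.5% of members, 87.8% of the genes of 50 to 150 kb and 80.9% of all genes were below 0. An unadjusted p under 0.05 was reached by 114 of 288 members and 829 of all 2604 genes tested. With TMM factors computed separately for head and body the median was -0.05 (0.05 in the shorter genes). Without WT replicate 2 the median was -0.03 in members and -0.08 in the shorter genes, and 7 of 289 members were called, 4 higher and 3 lower, against 3.14% of all genes in either direction, 0.919% higher and 2.22% lower. So the general lowering of the ratio depended on the WT libraries used. Separate TMM factors centre the changes of each window near 0, so that fit cannot show a general shift of the ratio. Leaving out WT replicate 1 gave 3 called members (0.691% of all genes) and WT replicate 3 gave 1 (0.153%). Leaving out DM replicates 1, 2 and 3 gave 0 each (0% of all genes). In those 3 fits 13, 21 and 15 members had an unadjusted p under 0.05, against 152, 254 and 168 of all genes.

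**Figure D2:**
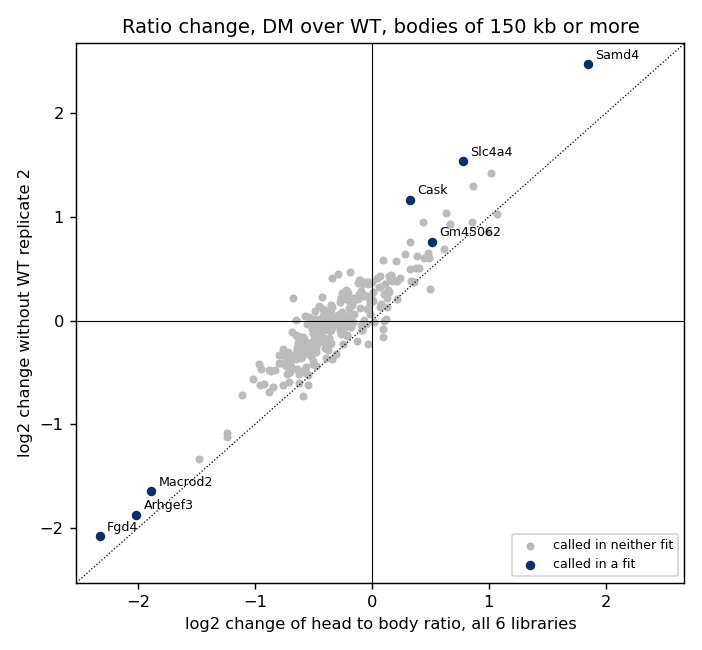
Each of the 281 points is a gene with a body of 150 kb or more, placed by its log2 change of head to body ratio, DM over WT, with all 6 libraries (horizontal) and without WT replicate 2 (vertical); dark points were called in at least 1 fit and the dotted line marks equal values. Most points, 263 of 281, lie above the line, and Fgd4, Arhgef3 and Macrod2 lie at the lower left in both fits.

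Macrod2 (ENSMUSG00000068205.14, chr2:140395310-142392966, plus strand) had 124, 93 and 131 head reads in WT against 71, 60 and 62 in DM, while its body counts were 442, 183 and 408 against 800, 630 and 597. Head reads per 100 body reads were 28.1, 50.8 and 32.1 against 8.88, 9.52 and 10.4, so the groups were far apart with or without WT replicate 2. The ratio fell by 1.89 on the log2 scale (SE 0.288, adjusted p = 0.0214), and by 1.65 without WT replicate 2 (SE 0.216, adjusted p = 0.00208). Head and body moved in opposite directions: the head fell (-0.91, adjusted p = 0.0213) and the body rose (0.96, adjusted p = 0.00133). Flrt3, a gene of the table that encodes a cell adhesion protein, lies inside the Macrod2 body. The nearest RefSeq start of Macrod2 was 120 bases from that in the table.

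Fgd4 (ENSMUSG00000022788.16, chr16:16416918-16600039, minus strand), which encodes frabin, a Cdc42 exchange factor that binds actin, had 44, 37 and 33 head reads in WT and 15, 20 and 12 in DM. Its body counts were 809, 415 and 659 in WT against 1446, 1132 and 1246 in DM. Per 100 body reads that made 5.44, 8.92 and 5.01 head reads for WT against 1.04, 1.77 and 0.963 for DM, with no overlap. The ratio fell by 2.33 (SE 0.356, adjusted p = 0.0214), with the head lower (-1.35, adjusted p = 0.0208) and the body higher (0.99, adjusted p = 2.23e-04). Without WT replicate 2 the ratio fell by 2.08 (SE 0.299, adjusted p = 0.0042). The promoter of Fgd4 printed above holds 2 GC boxes.

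Arhgef3, an exchange factor for small GTPases, had a higher body and few head reads. It had 13, 15 and 24 head reads in WT and 12, 9 and 4 in DM over bodies of 1652, 927 and 1491 and of 2911, 2380 and 2525 reads. The body rose (0.90, adjusted p = 1.42e-04) and the head was not past the threshold (-1.12, adjusted p = 0.103). Its ratio log2 change of -2.02 was not past the threshold with all libraries (adjusted p = 0.139) and was past it without WT replicate 2 (-1.87, adjusted p = 0.0314) or without WT replicate 1 (-2.33, adjusted p = 0.0375). The nearest RefSeq start lay 29093 bases from the annotated start of this row.

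The 4 members called higher without WT replicate 2 rested on few libraries. Cask, a membrane-associated scaffold kinase gene, had WT values of 2.41, 12.7 and 2.68 head reads per 100 body reads against DM values of 4.36, 5.77 and 7.26, so the library left out was higher than every DM library; the log2 change was 1.17 (adjusted p = 0.0303) without it and 0.33 (adjusted p = 0.775) with it. Gm45062 had 4.26, 7.88 and 5.19 against 6.97, 8.59 and 8.56 (0.76, adjusted p = 0.0373 without that library), and Slc4a4 38.5, 191 and 45.7 against 81.5, 198 and 102 (1.54, adjusted p = 0.0424). In Slc4a4, WT and DM replicates numbered 2 were both high, at 141 and 111 head reads against 44 to 56 in the others. Samd4, an RNA-binding translational repressor gene, had 2.62, 15.3 and 10.6 against 20.8, 24.5 and 21.3, and all DM values exceeded all WT values. Its body held 535 reads in WT replicate 1 and 47 to 66 in every other library, and without WT replicate 1 the log2 change was 0.79 (adjusted p = 0.277), against 2.48 (adjusted p = 0.0299) without WT replicate 2.

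**Figure D3:**
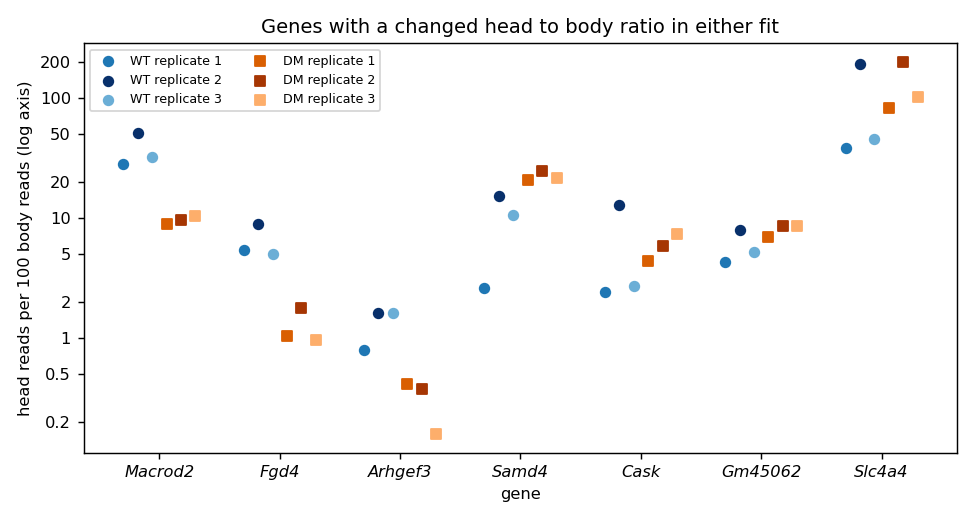
Head reads per 100 body reads (log axis) in each library for the 7 genes called in either ratio fit; circles are WT, squares are DM, and no mean or error is drawn. All DM points lie below all WT points for Macrod2, Fgd4 and Arhgef3, whereas WT replicate 2 lies inside or above the DM range for Cask, Gm45062 and Slc4a4.

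Over all members, the ratio of every DM library lay below that of every WT library in 48 of 280 (17.1%; 22.2% of all genes with as many head reads) and above it in 11 (3.93%; 3.91% of all genes). Set against WT replicates 1 and 3 only, DM lay below in 48 (17.1%; 24%) and above in 35 (12.5%; 13.8%). The shares lay near those of all genes or under them. By group means of RPM, 74 members (23.9%; 17.5% of the shorter genes) had a lower head and a higher body in DM with all libraries, and 23 (7.44%; 6.53%) did without WT replicate 2. Those higher in both windows numbered 106 (34.3%; 39.3%) and 157 (50.8%; 50.3%).

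Body counts rose in 180 members and fell in 125 of the 309 tested, 305 in all. The same test called 99.5% of all genes, 57.4% higher and 42.1% lower, since the table holds only bodies the authors had called, so these counts say nothing particular about long genes. The median log2 change was 0.37 in members and 0.40 in the shorter genes. Scaling mattered for the weaker increases: with DESeq2's size factors 103 rose and 129 fell (74.3% of all genes called, 31.7% higher and 42.6% lower), so that 44.4% of the called members were higher in place of 59.0%, and TMM factors gave 261 calls (84.5% of all genes). Relative to library totals, DESeq2 moved the median over all genes from 0.40 to 0.06 and TMM to 0.18. Both sets of factors came from the table's own rows, all called on body counts, and need not fit all transcripts. With the authors' size factors 180 members rose and 129 fell, against 1562 and 1158 of all 2721 genes tested. The median was then 0.35 in members and 0.37 over all genes. With WT replicate 2 left out, 302 were called (97.4% of all genes).

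The largest increases among members with non-overlapping groups were in Arhgap24, Alcam, Cpne8 and Tox. Arhgap24, which encodes a GTPase-activating protein for Rac, went from 850, 543 and 1246 body reads to 3458, 2625 and 3202, or 42.5 ± 10.4 and 147 ± 15.6 RPM (SD, n = 3 each), a log2 change of 1.79 (SE 0.173, adjusted p = 8.73e-05). Alcam, an adhesion molecule of the immunoglobulin superfamily, rose from 42.8 ± 10.5 to 134 ± 2.19 RPM (1.65, adjusted p = 8.73e-05). Cpne8, a copine, rose from 13.6 ± 1.70 to 42.3 ± 3.88 RPM (1.64, adjusted p = 6.22e-05), and Tox, an HMG-box regulator of lymphocyte development, from 9.67 ± 2.69 to 29.8 ± 2.54 RPM (1.62, adjusted p = 1.97e-04). In each of these genes every DM library exceeded every WT library, and their log2 changes stayed between 1.29 and 1.46 under DESeq2's size factors.

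Slit2 and Cux2 had large decreases that remained past -2 on the log2 scale without WT replicate 1. The Slit2 body went from 228, 125 and 186 reads to 38, 47 and 25, or 8.77 ± 0.996 and 1.75 ± 0.542 RPM (SD, n = 3 each), and fell by 2.33 on the log2 scale (SE 0.294, adjusted p = 2.66e-04). Its head fell alongside, from 135, 110 and 111 reads to 32, 28 and 26 (-2.13, adjusted p = 0.00276), so its very high head to body ratio did not move by more than the spread (0.24, adjusted p = 0.762). Cux2, a homeobox gene, fell from 5.35 ± 2.45 to 1.06 ± 0.196 RPM (-2.34, adjusted p = 0.00138), and had too few head reads for the head test.

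Chn1 and Pcbp3 were the other members among the 4 largest decreases with a mean body count of at least 50 and groups that did not overlap, and both depended on WT replicate 1. Khdrbs3 (-2.67, adjusted p = 0.018) and Syt9 (-2.42, adjusted p = 0.0153), also large, had overlapping groups. Chn1, which encodes a Rac GTPase-activating protein, had 222 body reads in WT replicate 1, 22 and 33 in WT replicates 2 and 3, and 16 to 17 in DM; its log2 change was -2.43 (adjusted p = 0.0143) with that library and -0.89 (adjusted p = 0.0314) without it. Pcbp3, an RNA-binding protein gene, had 381 reads there, 57 and 55 in the other WT libraries and 20 to 44 in DM (-2.22 and -0.89 without WT replicate 1, adjusted p = 0.0148 and 0.0412). In 15 members (4.85%; 4.56% of the shorter genes) the body RPM of WT replicate 1 was more than 2 times that of every other library, and no other library did this in any member. They included Khdrbs3, Chn1, Syt9, Pcbp3, Farp1, Samd4, Tcf7l1, Cadm1, Frmd5, Cdh2, Neo1, Denn2b, Cep112 and Dock9, of which Cdh2, Cadm1 and Neo1 are adhesion or axon guidance genes. Their median log2 change went from -1.77 to -0.62 without WT replicate 1; all 15 were called lower with it and 9 without it. WT replicate 1 was also the library with the highest summed signal of stromal and mesenchymal markers, and the part of this in the result was not tested. That sum covers the 5 of 12 listed genes in the table, 4 of them lower in DM. The table holds only bodies called between the groups, so the sum is not independent of that selection.

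Head counts changed in 58 of the 281 members tested, 18 higher and 40 lower in DM, against 20.3% of all genes in either direction, 9.62% higher and 10.7% lower. Body and head changes ran together across the 281 (Pearson r 0.82 over genes, which share the same libraries), and 56 of the 58 changed heads moved the way their body did; the exceptions were Macrod2 and Fgd4. Arhgap24 rose from 37, 50 and 77 head reads to 164, 174 and 177 (1.58, SE 0.305, adjusted p = 0.00649). The non-coding gene 1600002D24Rik (1.77, adjusted p = 0.0152), Aff2 (1.49, adjusted p = 0.0495), an AF4 family member on the X chromosome, and Spef2 (1.43, adjusted p = 0.022), a sperm flagellar gene, also rose, each from heads of at most 15 reads in any WT library. The integrin subunit gene Itga9 fell most, from 41, 77 and 54 head reads to 7, 17 and 9 (-2.50, SE 0.472, adjusted p = 0.00649), with its body also lower (-1.48, adjusted p = 6.22e-05). Slit2 (above), the metalloproteinase gene Adamts9 (-2.09, adjusted p = 0.0136) and Thsd7a (-1.97, adjusted p = 0.013), a membrane protein gene, followed, and in each of these heads all DM libraries lay below all WT libraries.

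The balance of head calls depended on the WT libraries. Without WT replicate 2, 107 of 289 members were called, 60 higher and 47 lower (36% of all genes; 22.1% and 13.9%), and without WT replicate 1, 103 of 288, 18 higher and 85 lower (32.6%; 9.97% and 22.6%). Without WT replicate 3, 30 were called (11.9% of all genes), and without DM replicates 1, 2 and 3 the counts were 1 (0.532%), 21 (7.82%) and 8 (4.16%). TMM factors gave 116 calls (38.2%) and DESeq2 109 (36.1%). The median head change was -0.14 in members and -0.11 in the shorter genes, 0.17 and 0.10 without WT replicate 2, and -0.36 and -0.25 without WT replicate 1. A filter on low counts kept out 28 members, so the counts do not cover the whole set.

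**Figure D4:**
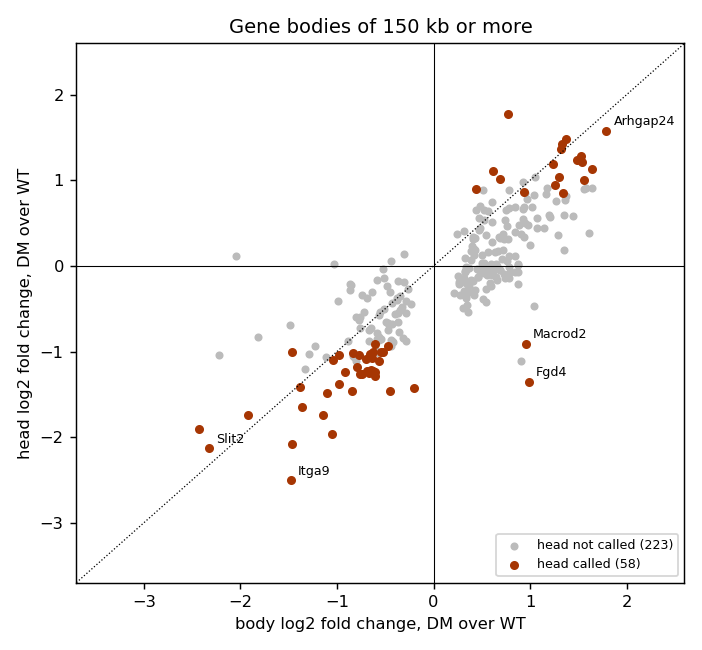
Head log2 fold change against body log2 fold change, DM over WT, for the 281 genes with bodies of 150 kb or more that entered the head test; dark points are the 58 called in the head test and the dotted line marks equal values. The empty band around a body change of 0 follows from the table, which holds only rows called on body counts, and Macrod2 and Fgd4 are the called points in the lower right quadrant.

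Genes grouped by function were counted from lists of 21 to 45 names. Against the counts below stand the shares of all genes called with all libraries: 57.4% of bodies higher and 42.1% lower, and 9.62% of heads higher and 10.7% lower. Of the 23 small GTPase and actin genes, which control the cytoskeleton and cell movement and are often long, 19 rose and 4 fell in body counts, with a median of 0.73 against 0.40 over all genes tested. Vav3 (55.3 ± 4.49 to 136 ± 11.7 RPM, SD, n = 3 each; 1.30, adjusted p = 6.22e-05), an exchange factor acting downstream of immune receptors, Dock4 (46.1 ± 5.72 to 111 ± 4.55 RPM; 1.26, adjusted p = 6.96e-05) and Arhgap24 led. In the Dock family of exchange factors, Dock1, Dock2, Dock4, Dock5 and Dock10 rose by 0.27 to 1.26 and Dock9 fell by 1.11; under DESeq2's size factors Dock2 and Dock5 were at -0.06 each. The 4 that fell were Dock9, Diaph3, Tiam1 and Tiam2, of which Dock9 is one of those with a high body in WT replicate 1. Head counts rose in 4 of the 23 and fell in 1 (Fgd4). Without WT replicate 2, 18 bodies rose and 4 fell, 8 heads rose and 2 fell (22.1% and 13.9% of all heads); without WT replicate 1, 18 bodies rose and 3 fell, 4 heads rose and 6 fell (9.97% and 22.6%).

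All 8 membrane traffic genes rose in body counts scaled by library totals (57.4% of all genes did), by 0.29 to 0.69 with a median of 0.58. None of the 7 tested changed in the head window (20.3% of all genes did), where 0 also passed without WT replicate 2 (36% of all genes). Sorl1, a sorting receptor of the endosome, rose from 72.9 ± 2.95 to 113 ± 2.71 RPM (SD, n = 3 each; 0.63, adjusted p = 4.57e-04), Vps13d, a lipid transfer protein, from 182 ± 19.6 to 283 ± 11.4 RPM (0.63, adjusted p = 0.00102) and Snx29, a sorting nexin, from 175 ± 24.5 to 281 ± 11.8 RPM (0.69, adjusted p = 0.00112). Tbc1d22a, at 0.29, was at -0.04 with DESeq2, so not all 8 rose under that scaling, where 31.7% of all genes were called higher. Of the 8, 7 were called without WT replicate 2. All 4 chromatin regulators in the class rose, Ncoa1, Hdac4 and Baz2b among them; Ncoa1, a nuclear receptor co-activator with acetyltransferase activity, rose most, from 31.5 ± 2.84 to 72.5 ± 3.00 RPM (1.20, adjusted p = 6.22e-05), while Baz2b (0.41) was at 0.08 under DESeq2.

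The 13 kinase and second messenger genes were divided, with 5 higher and 8 lower bodies (57.4% and 42.1% of all genes) and a median of -0.37. Prkch, a protein kinase C isoform, rose from 20.8 ± 1.35 to 62.0 ± 5.49 RPM (SD, n = 3 each; 1.58, adjusted p = 6.22e-05) and the calmodulin kinase gene Camk2d from 59.1 ± 6.81 to 162 ± 12.5 RPM (1.45, adjusted p = 6.22e-05). Stk39 fell from 53.0 ± 8.80 to 30.3 ± 3.60 RPM (-0.81, adjusted p = 0.00133), and the other protein kinase C genes in the class, Prkca, Prkcb and Prkce, fell by 0.64, 0.44 and 0.52. Inpp4b, with the most body reads of any member, had 30213, 15403 and 39505 in WT against 17933, 16353 and 14889 in DM (-0.80, adjusted p = 0.00334). In raw counts WT replicate 2 lay inside the DM range, and after division by library totals all WT values lay above all DM values. Head counts fell in 3 of the 13, Inpp4b, Tnik and Prkce, and rose in 0 (10.7% and 9.62% of all genes); without WT replicate 2 they fell in 4 and rose in 2 (13.9% and 22.1%), and without WT replicate 1 they fell in 7 and rose in 0 (22.6% and 9.97%).

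Of the 8 blood transcription factor genes, 4 bodies rose (Tcf7l2, Runx2 and Tcf4 among them) and 4 fell (Bach2, Ikzf2, Msi2 and Nfia). Tcf7l2, a Wnt pathway effector, rose from 113 ± 18.1 to 329 ± 41.0 RPM (SD, n = 3 each; 1.54, adjusted p = 8.54e-05) and was the 1 gene of this list with a changed head (23, 34 and 38 reads to 77, 80 and 78; 1.22, adjusted p = 0.0187) with all libraries. Heads of this list rose in 2 and fell in 1 without WT replicate 2 (22.1% and 13.9% of all heads). They rose in 1 and fell in 2 without WT replicate 1 (9.97% and 22.6%). Runx2 rose from 90.9 ± 7.77 to 151 ± 7.16 RPM (0.73, adjusted p = 3.89e-04), and Nfia fell from 49.9 ± 4.66 to 32.9 ± 1.05 RPM (-0.60, adjusted p = 0.00108). Of the 6 genes of common fragile sites, 2 rose (Macrod2 and Lpp) and 4 fell: Fhit, Auts2, Nbea and Rad51b. Rad51b, a recombination gene, fell from 124 ± 8.28 to 68.3 ± 4.94 RPM (-0.86, adjusted p = 1.97e-04) with a head of -0.21 (adjusted p = 0.688), and Nbea, a trafficking scaffold, from 44.4 ± 2.94 to 28.8 ± 1.49 RPM (-0.63, adjusted p = 7.74e-04). Heads fell in 3 of these 6, Fhit, Macrod2 and Nbea (10.7% of all heads did). They fell in 2 without WT replicate 2 (13.9%) and in 4 without WT replicate 1 (22.6%). The Fhit body was not called without WT replicate 2 (adjusted p = 0.0579).

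**Figure D5:**
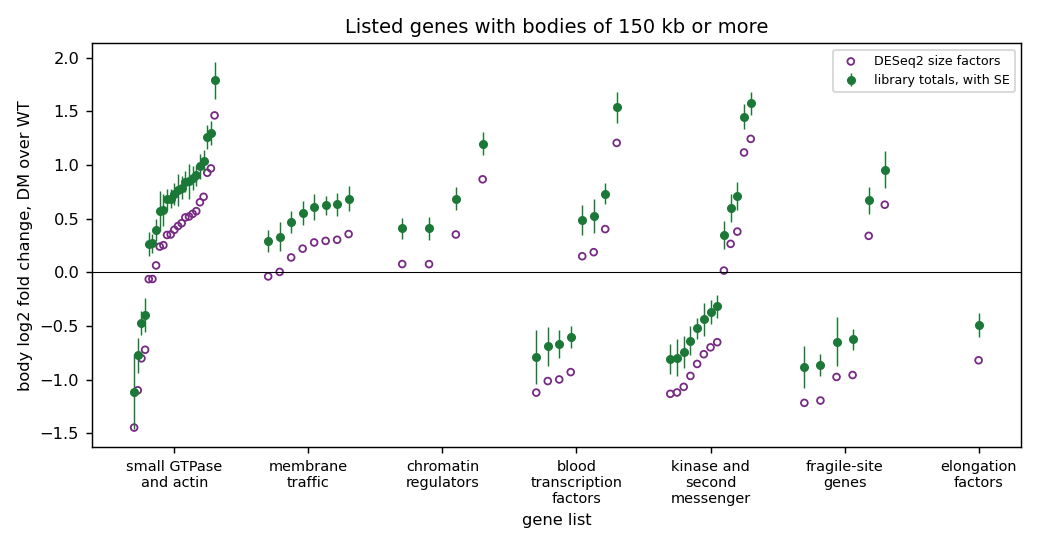
Body log2 fold changes, DM over WT, of the listed genes with bodies of 150 kb or more; filled points are scaled by library totals with bars for the SE, open points use DESeq2 size factors. Of the 23 small GTPase and actin genes 19 lie above 0 with library totals, and the open points lie lower throughout.

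Mllt3, floxed in all 6 libraries and supplied again by the vector, has a 263 kb body and was the 1 elongation factor gene in the class. Its body level went from 84.4 ± 9.62 to 60.1 ± 2.50 RPM (SD, n = 3 each), a log2 change of -0.49 (adjusted p = 0.0037). Head counts of 70, 49 and 126 against 52, 47 and 58 gave -0.66 (adjusted p = 0.128); the head was called lower without WT replicate 2 (-0.77, adjusted p = 0.0411) and without WT replicate 1 (-0.83, adjusted p = 0.035). Counts over the whole gene do not separate the endogenous locus from the vector's coding sequence, so they do not check the deletion.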

How the data were processed

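Nascent RNA was profiled by PRO-seq in 6 libraries. The authors deposited, per the file headers, raw read counts for a head and a body window of each transcript, with their own log2 fold changes and adjusted p-values; the 3022 rows all had an adjusted p of at most 0.0498. Per the submitters' processing notes, mm10, dm3, Bowtie 1.1.2, bedtools 2.28, MACS2, cutadapt and Trimmomatic were used, with no role given. The deposited table also holds the authors' library totals, a mean body signal over size factors and, per the file headers, RPKM per window.

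The members and gene lists were chosen with earlier results of these data known. Each gene was represented by the row whose body counts had the highest mean. Head counts, body counts and their ratio were each fitted over all genes that passed a filter on low counts (filterByExpr, at least 10 counts, 15 in total) with the quasi-likelihood test of edgeR 4.0.16 (R 4.3.3, limma 3.58.1), scaled by library totals; the ratio is the interaction of window and group, with the library as a block. Unless another test is named, adjusted p-values are from edgeR with Benjamini-Hochberg adjustment, with a threshold of 0.05. Single values per library were compared by two-sided exact permutation. RPM and RPKM were computed from the deposited counts and the authors' library totals.

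Genes named were the longest, the densest, those with extreme ratios, those called in a ratio test, the largest body and head changes and up to 3 per list; other list members were named after their values were seen. Some genes that the rule covers are not reported here. Alternatives were DESeq2 1.42.0, TMM factors, the authors' size factors, other filters, lengths and thresholds, a replicate block and each library left out. The authors' size factors were recovered from their mean body signal. Tested on simulated data with 200 genes changed 2-fold, the fits recovered 198 of the 199 changed genes that passed the filter for bodies. For heads they recovered 170 of 190 and for the ratio 133 of 189. False calls numbered 11, 4 and 6 among 2740, 2597 and 2600 genes tested. Apart from changed genes, the simulated libraries shared a mean profile, with a fixed spread equal in WT and DM. Heads were drawn independently of bodies. The simulation held none of the deviations of single WT libraries described above. These figures thus do not measure error rates in the real data.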

Additional observations from a re-analysis of the deposited data

How the results depend on the processing

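Leaving out each library in turn gave 236 to 302 members with changed bodies (150 to 180 higher, 84 to 127 lower), 1 to 107 with changed heads (0 to 60 higher, 1 to 85 lower) and 0 to 7 with a changed ratio (0 to 4 higher, 0 to 3 lower). The shares of all genes called in these fits were 74.7% to 97.4% for bodies, 0.532% to 36% for heads and 0% to 3.14% for ratios. Per 100 body reads, the head difference then ran from -2.35 to 0.23, that relative to other genes from -0.015 to 0.138, and that in the body share from 0.197 to 0.604 percentage points. DESeq2 gave 103 higher bodies (31.7% of all genes) and 109 changed heads (36.1% of all genes), 47 higher and 62 lower. TMM gave 116 heads (38.2% of all genes), 51 higher and 65 lower. A filter at a mean of 50 counts gave 31 heads (16.1% of all genes), 10 higher and 21 lower, and 1 ratio, lower (0.0501% of all genes). A threshold of 0.01 gave 73 lower bodies, 7 heads (1 higher, 6 lower) and 0 ratios, 0 lower. No share of all genes is given at that threshold. Bodies of at least 100 kb gave 535 bodies (337 higher, 198 lower), 89 heads (32 higher) and a share difference of 0.905, and those of at least 200 kb 194 bodies (106 higher), 36 heads (10 higher, 26 lower) and 1 ratio, lower. Both lengths were read from the main fits, which called 99.5% of all bodies, 20.3% of all heads and 0.0776% of all ratios. Separate TMM factors gave 5 ratios (2 higher), against 0.970% of all genes, and 1, lower, was called with overlapping members left out. Medians gave differences of -7.97 in the RPKM ratio and -0.11 relative to other genes. Under DESeq2 the body changes of Fndc3a (-0.027) and Rreb1 (-0.016) reversed. The causes were not tested.

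Samples with the same number did not all deviate together: correlations for numbers 1, 2 and 3 were -0.31, -0.19 and 0.29 over member bodies and -0.059, -0.19 and 0.44 over all bodies, so the numbers were not taken to pair samples. With the replicate block 101 heads (38 higher, 63 lower) were called, 35.9% of those tested against 30.9% of all genes. The 5 ratios called were all lower, 1.78% of those tested against 1.47% of all genes (5 higher and 33 lower). Bodies called numbered 298, or 96.4% against 96.8%.

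Head windows limit precision: 29 members had under 10 head reads on average, and counting error alone is wide there.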
